A study of Mus musculus with 77 samples.

Results

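Potassium channel genes were followed in the ribosome-bound messenger RNA of the main output neurons of the mouse striatum. They were taken as every probe set whose single annotated gene symbol began with Kcn, which gave 167 probe sets of 84 genes out of 45101 probe sets and 18194 genes in the table. A gene was represented by whichever of its probe sets had the highest mean over all arrays. Of the 84 genes, 59 had a mean above the 40th percentile of all probe set means (3.55 on the log2 scale) and were tested, beside 13271 tested genes in all. The other 25 were not tested for change. Among them, Kcnq1ot1, Kcnmb4os1 and Kcnmb4os2 (8 probe sets) matched by symbol alone and were placed in no channel class.

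Potassium channels let potassium leave the cell and so set the resting potential, the threshold and the firing pattern of a neuron. Voltage-gated Kv channels open on depolarisation, KCNQ channels carry the slow M current that muscarinic receptors close, and inward rectifiers (Kir) hold the resting potential, some of them opened by G proteins. Calcium-activated channels (KCa) follow the calcium that enters with each spike, and tandem pore domain channels (K2P) carry leak current. In spiny projection neurons, Kir channels keep the silent state very negative, and Kv1 and Kv4 channels slow the approach to the first spike.

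The RNA came from single male mice of 9 to 14 weeks on the C57BL/6J background that carried a tagged ribosomal protein, EGFP-L10a, under Drd1 (line CP73) or Drd2 (line CP101) control on a bacterial artificial chromosome. All 8 groups carry the tag, in direct pathway neurons (dSPN, Drd1 line) or indirect pathway neurons (iSPN, Drd2 line). Lesioned mice had received 6-hydroxydopamine (6-OHDA, 3.2 µg/µl), which kills dopamine neurons, in the right medial forebrain bundle, and mock-lesioned mice ascorbate in saline. After lesion, 11 dSPN arrays came from mice given saline, 12 from mice on low levodopa and 11 from mice on high levodopa, and 10 came from mock-lesioned mice given saline. For iSPN the numbers were 7, 8 and 8 after lesion and 10 after mock lesion. Levodopa, the precursor of dopamine, started at 1 mg/kg for the first 3 days and continued at 2 mg/kg until day 9 (low), or started at 3 mg/kg and continued at 6 mg/kg (high), with 12 mg/kg benserazide. The dorsal striatum of the lesioned side was used, and only mice whose behaviour showed a lesion went on to treatment.

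The labels held against the driver genes. In the 4 dSPN groups the medians of Drd1 lay between 11.44 and 11.79, against 9.19 to 10.15 in the 4 iSPN groups. For Drd2 they lay between 6.62 and 7.63 in dSPN, against 12.20 to 12.41 in iSPN. Array medians lay between 4.31 and 4.42, and no detection calls were used, so the number of arrays limits the precision. Each animal gave 1 array, and fewer cells of a type and less RNA per cell cannot be told apart in such pulldowns. Sorted by title number, the animals restart their count 6 times, which leaves 7 consecutive sets of arrays, called runs here. Each run lies within 1 line, and the labels do not explain the runs.

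All values are on the log2 scale. A change is a difference of group means with its standard error (SE) from limma over all 77 arrays, tested two-sided with Benjamini-Hochberg adjustment over all 13271 genes. A gene is said to have risen or fallen where the adjusted p was under 0.05. Levels of different probe sets are not comparable, so no gene's level is set against another gene's.

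In at least 1 of the 6 comparisons of lesion, low dose and high dose in either line, 33 of the 59 genes were called. The levodopa comparisons in dSPN held most of these calls. The matching share of all tested genes was not computed. At the high dose in dSPN alone 20.1% of all tested genes rose and 25.5% fell.

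**Figure D1:**
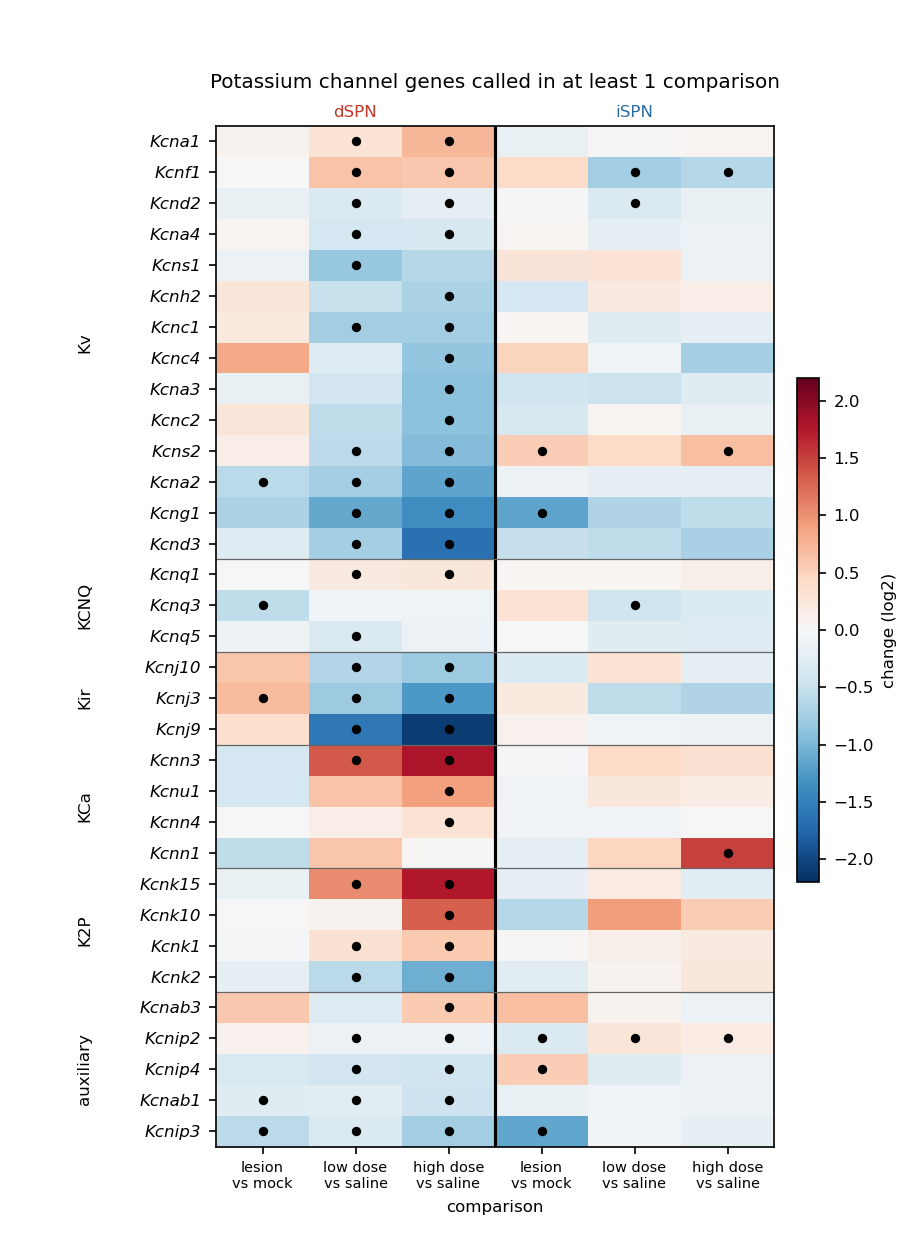
Change (log2, colour) of the 33 potassium channel genes called in at least 1 of 6 comparisons, by channel class, with a black dot where the adjusted p was under 0.05. Most dots lie in the low-dose and high-dose columns of dSPN, where most Kv and auxiliary genes and all 3 Kir genes are blue, and Kcnn3 and Kcnk15 are the deepest red.

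The first comparison asked what loss of dopamine did to these genes in dSPN. Among the pore-forming genes Kcnj3, a subunit of G protein-gated Kir channels, rose, and Kcna2, a Kv1 subunit of axons and axon initial segments, and Kcnq3, an M current subunit, fell. Kcnip3 and Kcnab1, which encode auxiliary subunits of Kv4 and Kv1 channels, fell as well. In all, 1 of 59 genes rose and 4 fell (1.69% and 6.78%). Among all tested genes 0.64% rose and 1.84% fell.

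Kcnq3 spanned 8.58 to 9.50 (median 8.90) in lesioned dSPN, against 9.20 to 9.73 (median 9.48) in mock-lesioned dSPN, a change of -0.56 (SE 0.11, adjusted p = 0.000545). The groups overlapped only between 9.20 and 9.50. Kcnj3 spanned 6.85 to 8.13 (median 7.66) in lesioned dSPN, against 6.38 to 7.15 (median 6.92) in mock-lesioned dSPN, a change of 0.70 (SE 0.19, adjusted p = 0.0297). Of the 11 lesioned arrays 10 lay above every mock array. Kcna2 spanned 8.03 to 8.79 (median 8.42) in lesioned dSPN, against 8.73 to 9.18 (median 9.04) in mock-lesioned dSPN, a change of -0.59 (SE 0.12, adjusted p = 0.00101).

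Kcnip3 encodes a calcium sensor that binds Kv4 channels and also acts as a transcriptional repressor (DREAM). It spanned 8.83 to 9.78 (median 9.41) in lesioned dSPN, against 9.68 to 10.25 (median 9.90) in mock-lesioned dSPN, a change of -0.58 (SE 0.13, adjusted p = 0.00283). Kcnab1, a Kv beta subunit, changed by -0.27 (SE 0.05, adjusted p = 0.000553). With run as a fixed block the calls of Kcnj3 (adjusted p = 0.298), Kcna2 (0.0705) and Kcnip3 (0.112) were lost, and Kcnq3 and Kcnab1 stayed called. In run 1 alone, with 5 lesioned and 4 mock arrays, limma called 0 of 59 genes, 11 had an unadjusted p under 0.05, and all 5 genes kept their sign.

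In iSPN the lesion moved other auxiliary genes beside Kcnip3. Kcnip3 and Kcng1, a silent Kv subunit that modifies Kv2 channels, fell by over 1, and Kcnip2, the Kv4 partner best known from heart, fell slightly. Kcns2, another silent Kv subunit, and Kcnip4, a further Kv4 partner, rose. That made 2 genes higher and 3 lower of 59 (3.39% and 5.08%). Among all genes tested the shares were 3.19% higher and 3.01% lower. Markers of dSPN moved in this comparison too: 4 of 9 were lower (44.4%) and none higher, with a median change of -0.49. Of 6 iSPN markers 1 was higher and 1 lower, and no astrocyte or oligodendrocyte marker was called. The part of dSPN RNA in these channel changes was not tested.

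For Kcnip3 the groups did not overlap: lesioned iSPN spanned 8.62 to 9.27 (median 8.96) and mock-lesioned iSPN 9.69 to 10.44 (median 10.03), a change of -1.13 (SE 0.15, adjusted p = 2.43e-08). Nor did they for Kcnip2, at 11.66 to 12.11 (median 11.87) in lesioned iSPN and 12.12 to 12.35 (median 12.18) in mock-lesioned iSPN, a change of only -0.31 (SE 0.06, adjusted p = 4.68e-05). Kcng1 spanned 5.09 to 6.38 (median 6.13) in lesioned iSPN, against 6.26 to 8.24 (median 6.94) in mock-lesioned iSPN, a change of -1.16 (SE 0.26, adjusted p = 0.00191). In dSPN the same gene changed by -0.69 without passing (adjusted p = 0.0987).

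Kcnip4 spanned 9.34 to 9.88 (median 9.77) in lesioned iSPN, against 8.77 to 9.61 (median 9.11) in mock-lesioned iSPN, a change of 0.53 (SE 0.11, adjusted p = 0.000959). Kcns2 spanned 8.19 to 8.94 (median 8.57) in lesioned iSPN, against 7.08 to 8.50 (median 8.20) in mock-lesioned iSPN, a change of 0.53 (SE 0.16, adjusted p = 0.0314). Both rises lost their call with run as a fixed block (adjusted p = 0.0669 and 0.444). Kcnip4 also lost it with the mean of its probe sets (0.29, adjusted p = 0.0767). The 3 falls kept theirs in both settings. The block is a weak check here, because lesion and run nearly coincide in iSPN. Run 5 held 9 mock arrays and 1 lesioned saline array, and run 6 held 1 mock array and 2 lesioned saline arrays. The other 4 lesioned saline arrays were in run 7, without mock arrays. No single run was tested for this comparison. The other probe sets of Kcnip3 (-0.42) and Kcng1 (-0.40) were lower by less and were not called. Of 2 further Kcnip2 probe sets 1 was called lower (-0.42) and 1 was at 0.002.

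**Figure D2:**
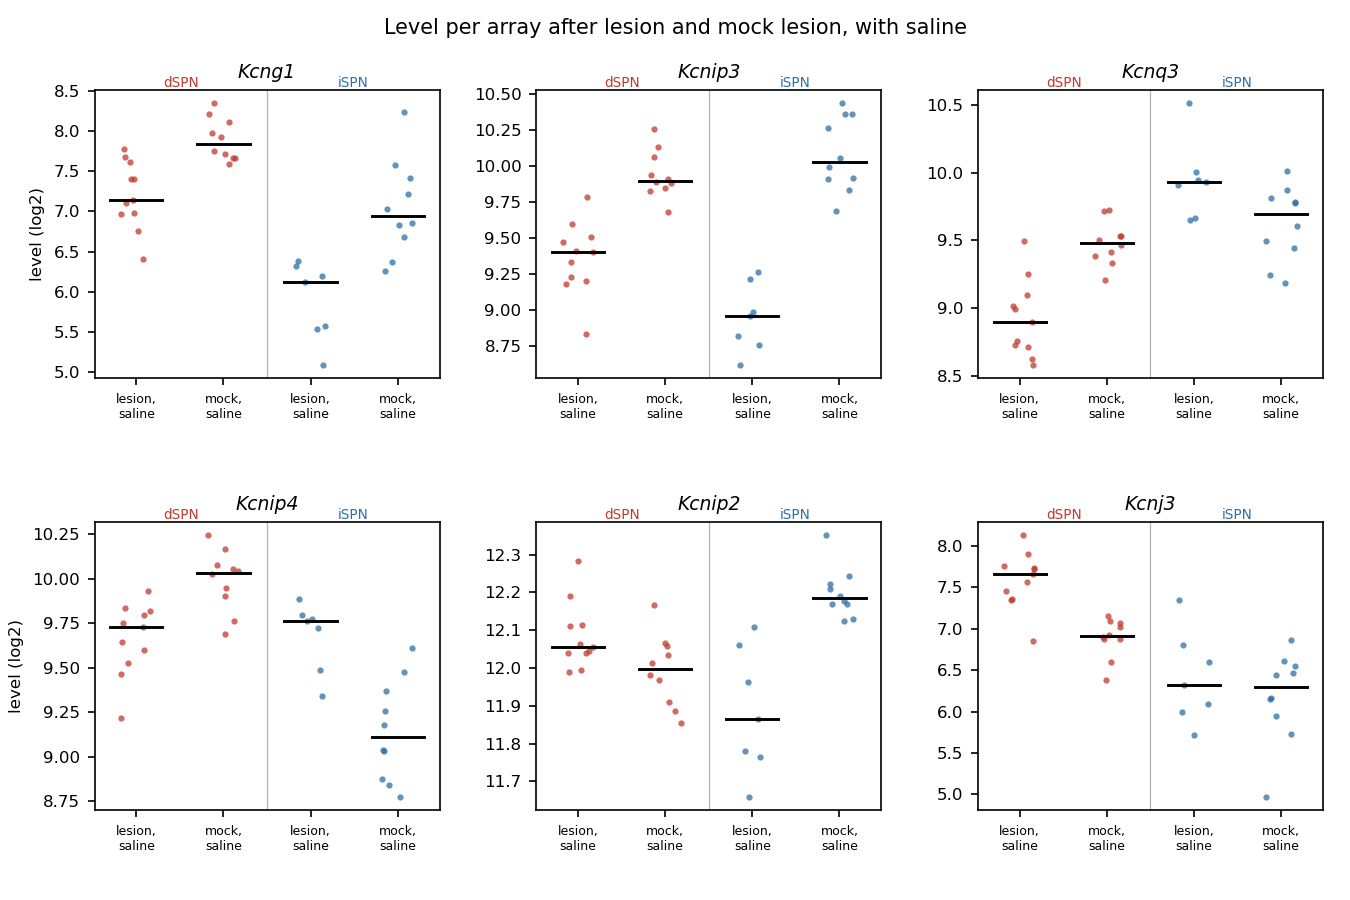
Level per array (log2, vertical axis) of 6 genes in lesioned and mock-lesioned mice given saline, dSPN in red and iSPN in blue, with black bars at group medians. Kcnip3 is lower after lesion in both lines, and Kcnq3 and Kcnip4 lie on opposite sides of their mock groups in the lines.

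The test of the difference between lines (effect in dSPN minus effect in iSPN) called 3 genes. Kcnq3 gave -0.88 (SE 0.16, adjusted p = 0.000116), from -0.56 in dSPN and 0.32 in iSPN, where the change was not called (adjusted p = 0.109). Kcnip4 gave -0.86 (adjusted p = 4.39e-05), from -0.33 in dSPN, not called, and 0.53 in iSPN. Kcnip2 gave 0.40 (adjusted p = 0.000103), from 0.09 in dSPN, not called, and -0.31 in iSPN. That is 1.69% higher and 3.39% lower, with 1.65% and 3.21% among all genes. For Kcnip3 the difference of 0.55 did not pass (adjusted p = 0.0861). The Kcnq3 difference was no longer called with run as a fixed block (-0.70, adjusted p = 0.197).

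High-dose levodopa, the regimen meant to induce dyskinesia, was then compared with saline in lesioned dSPN. Of 59 genes 10 rose and 19 fell (16.9% and 32.2%), in a comparison in which 20.1% of all genes rose and 25.5% fell. The median change was -0.09 over these genes and -0.04 over all tested genes. The classes split: of 24 Kv genes 2 rose and 11 fell, of 7 Kir genes none rose and 3 fell, of 8 KCa genes 3 rose and none fell, of 10 K2P genes 3 rose and 1 fell, and of 3 KCNQ genes 1 rose. Of 7 auxiliary genes 1 rose and 4 fell. The medians were -0.33 for Kv, -0.42 for Kir, 0.13 for KCa and 0.24 for K2P genes. The KCa class also counted Kcnmb4 (BK family) and Kcnt1 (Slo2 family), neither of which was called. Differences between classes were not tested.

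**Figure D3:**
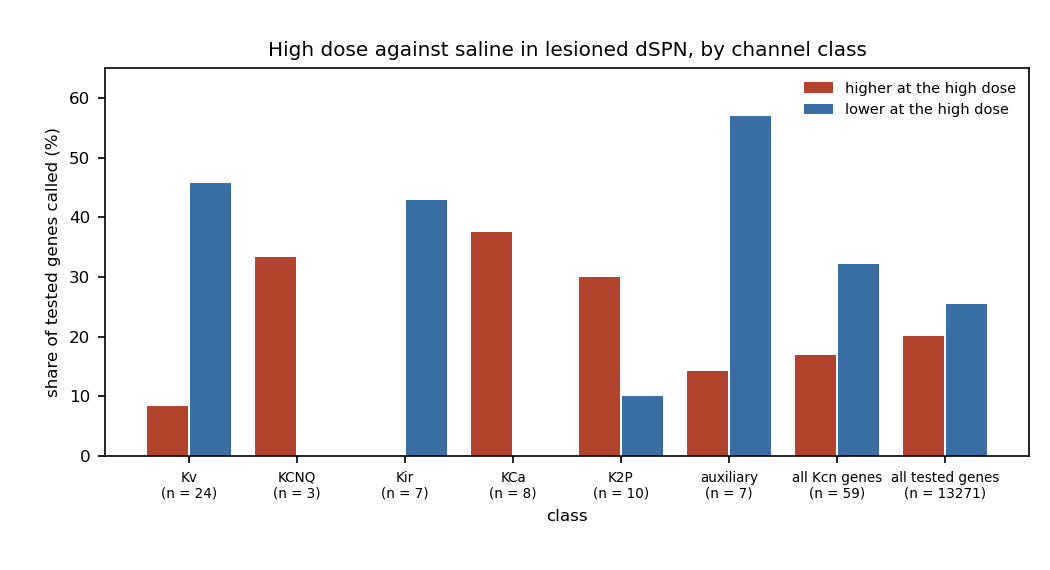
Share of tested genes (%, vertical axis) that rose (red, left) or fell (blue, right) at the high dose against saline in lesioned dSPN, for each channel class, for all 59 potassium channel genes and for all 13271 tested genes. Falls outnumber rises among Kv, Kir and auxiliary genes, and no KCa or KCNQ gene fell.

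Among Kir genes the G protein-gated subunits fell furthest. Kcnj9 spanned 5.57 to 7.78 (median 6.89) at the high dose, against 8.53 to 9.20 (median 8.89) with saline. Every high-dose array lay below every saline array, and the change of -2.08 (SE 0.23, adjusted p = 4.07e-12) brought the level to 0.236 of that with saline. Kcnj3, its partner in heteromeric channels, spanned 5.89 to 6.78 (median 6.48) at the high dose, against 6.85 to 8.13 (median 7.66) with saline, again with no overlap (-1.25, SE 0.19, adjusted p = 5.64e-08). All 3 further Kcnj9 probe sets above the filter were also lower, from -1.41 to -0.01, and 1 of them was called.

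Kcnj10, the Kir channel of astrocytes and oligodendrocytes, spanned 3.95 to 5.27 (median 4.40) at the high dose, against 4.53 to 6.05 (median 5.11) with saline (-0.81, SE 0.24, adjusted p = 0.00373). The strongly rectifying Kcnj2 (0.26), Kcnj4 (-0.09) and Kcnj12 (-0.37), which carry the resting conductance of spiny neurons, did not pass, nor did Kcnj11, the pore of the ATP-sensitive channel (-0.42). Kcnj6, another G protein-gated subunit, was below the filter and untested.

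Among Kv genes, Kcnd3, a pore subunit of the A-type Kv4 current, fell most. It spanned 2.44 to 5.63 (median 4.27) at the high dose, against 4.21 to 6.65 (median 5.64) with saline, with overlap (-1.64, SE 0.29, adjusted p = 2.87e-06). Kcnd2, the other called Kv4 subunit and the main one of spiny neurons, changed by -0.22 (adjusted p = 0.00933). Kcna2 spanned 6.71 to 7.85 (median 7.21) at the high dose, against 8.03 to 8.79 (median 8.42) with saline, without overlap (-1.16, SE 0.12, adjusted p = 2.27e-13). Its Kv1 relatives Kcna3 (-0.90) and Kcna4 (-0.36) fell too.

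Kcna1, also of the Kv1 family, went the other way. It spanned 10.46 to 10.88 (median 10.60) at the high dose, against 9.46 to 10.07 (median 9.94) with saline, without overlap (0.73, SE 0.09, adjusted p = 6.72e-10). Of its 3 further probe sets above the filter 2 were called higher and 1 had the opposite sign (-0.07). Kcna5 (0.22), Kcna6 (0.04) and Kcna7 (0.06) did not pass.

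The 3 Kv3 genes, whose channels repolarise fast-spiking neurons, were called lower: Kcnc2 fell by 0.90, Kcnc4 by 0.86 and Kcnc1 by 0.76. Kcnc2 was no longer called with run as a fixed block (adjusted p = 0.0562). For Kcnc4 the other probe set had the opposite sign (0.16) and the mean of its probe sets was not called (adjusted p = 0.0566). Among silent subunits, Kcng1 spanned 4.95 to 6.42 (median 6.04) at the high dose, against 6.41 to 7.78 (median 7.14) with saline (-1.36, SE 0.23, adjusted p = 5.89e-07). The ranges overlapped only between 6.41 and 6.42. The other Kcng1 probe set changed by only -0.11 and was not called, while the mean of its probe sets stayed called. Kcns2 spanned 7.65 to 8.44 (median 8.24) at the high dose, against 8.77 to 9.40 (median 9.08) with saline, without overlap (-0.96, SE 0.14, adjusted p = 2.45e-08). Kcnf1, also silent on its own, rose by 0.59 (adjusted p = 0.00295), and Kcnh2, of the EAG family, fell by 0.70 (adjusted p = 0.0144).

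The KCa rises were led by Kcnn3, a small-conductance channel of the afterhyperpolarisation that apamin blocks. It spanned 9.50 to 10.19 (median 9.91) at the high dose, against 7.67 to 8.55 (median 8.11) with saline. No arrays overlapped, and the change of 1.80 (SE 0.16, adjusted p = 1.18e-15) amounted to 3.47-fold. Its family member Kcnn2 (-0.37, adjusted p = 0.156) and the large-conductance pore Kcnma1 (0.19, adjusted p = 0.245) did not pass. Kcnu1, grouped here with its calcium-activated relatives but known as the pH-sensitive channel of sperm, spanned 4.71 to 6.83 (median 5.64) at the high dose, against 4.08 to 5.59 (median 4.68) with saline (0.90, adjusted p = 0.0141). Kcnn4, of intermediate conductance, spanned 5.01 to 5.82 (median 5.51) at the high dose, against 4.78 to 5.57 (median 5.07) with saline (0.30, adjusted p = 0.0113).

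The K2P class held changes in both directions. Kcnk15 spanned 6.16 to 7.998 (median 7.03) at the high dose, against 4.86 to 5.74 (median 5.37) with saline, without overlap (1.77, SE 0.20, adjusted p = 1.91e-11). Kcnk15 belongs to the acid-sensitive K2P group but gives little current when expressed alone. Kcnk1, a weakly rectifying leak channel, spanned 10.06 to 10.56 (median 10.39) at the high dose, against 9.27 to 10.00 (median 9.89) with saline, also without overlap (0.58, SE 0.11, adjusted p = 5.23e-06). Kcnk10, which stretch and fatty acids open, spanned 3.41 to 7.39 (median 4.88) at the high dose, against 3.00 to 6.16 (median 3.81) with saline (1.31, SE 0.40, adjusted p = 0.00494), with wide overlap. The other Kcnk10 probe set changed by 0.25 and was not called.

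Kcnk2, the relative of Kcnk10 opened by stretch, fatty acids and volatile anaesthetics, fell. It spanned 7.94 to 9.10 (median 8.28) at the high dose, against 9.05 to 9.81 (median 9.40) with saline, with overlap only between 9.05 and 9.10 (-1.07, SE 0.12, adjusted p = 2.19e-11).

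Among auxiliary genes, Kcnip3 spanned 7.98 to 9.13 (median 8.64) at the high dose, against 8.83 to 9.78 (median 9.41) with saline (-0.77, SE 0.13, adjusted p = 4.71e-07). Kcnip4 spanned 8.90 to 9.62 (median 9.18) at the high dose, against 9.22 to 9.93 (median 9.73) with saline (-0.45, adjusted p = 0.00012). Kcnab1 spanned 10.51 to 10.81 (median 10.64) at the high dose, against 10.98 to 11.31 (median 11.08) with saline, without overlap (-0.46, SE 0.05, adjusted p = 1.47e-11). Kcnab3, another Kv beta subunit, spanned 4.82 to 7.47 (median 6.19) at the high dose, against 4.80 to 6.62 (median 5.71) with saline (0.57, SE 0.22, adjusted p = 0.0277). It was not called with run as a fixed block (adjusted p = 0.0906) or within run 2 (adjusted p = 0.182). Kcnip2 changed by -0.12 (adjusted p = 0.0349), but both of its other probe sets had the opposite sign.

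In the KCNQ class only Kcnq1, a subunit better known from heart and epithelia, passed. It spanned 4.20 to 4.96 (median 4.43) at the high dose, against 3.96 to 4.45 (median 4.29) with saline (0.26, SE 0.07, adjusted p = 0.00292). The M current subunits Kcnq3 (-0.09, adjusted p = 0.532) and Kcnq5 (-0.14, adjusted p = 0.331) did not pass.

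Over the 59 genes, 4 had every high-dose array above every saline array (Kcna1, Kcnk1, Kcnk15 and Kcnn3) and 5 had every one below (Kcna2, Kcnab1, Kcnj3, Kcnj9 and Kcns2). Among all tested genes 6.34% separated upward and 5.05% downward. Within run 2, which holds 9 arrays of the high dose and 6 of saline, 22 of 59 genes were called, 21 of them among the 29, and all 29 kept their sign. The 8 not called there were Kcnab3, Kcnc4, Kcnf1, Kcnh2, Kcnip2, Kcnk10, Kcnn4 and Kcnq1. Of 20 called genes with further probe sets above the filter, 17 had the same sign in every one. Another probe set was called the same way for 14 of them and the opposite way for none.

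Markers of other cells moved in the same dSPN comparison. Of 14 measured oligodendrocyte markers 12 were lower and none higher, with list means of 5.44 to 6.60 at the high dose, against 6.66 to 7.89 with saline. Among astrocyte markers, 7 of 14 were lower and none higher, with means of 5.77 to 6.72 at the high dose, against 6.61 to 7.22 with saline. Of 9 GABA interneuron markers 2 were lower, Pvalb among them (-0.90, adjusted p = 0.033), and of 6 iSPN markers 4 were lower and 1 higher. Among all tested genes 25.5% were lower and 20.1% higher, beside 22.2% of GABA markers called lower. All 9 GABA markers had a negative change, with a median of -0.37. Their list means were 5.69 to 6.32 at the high dose, against 6.22 to 7.04 with saline. Markers of the spiny neurons themselves moved as well. Of 9 markers shared by both types 7 were lower and 2 higher, and of 9 dSPN markers 4 were lower and 2 higher. No marker was listed at 0, the lowest value in the whole table being 1.34. The part of other cells in the falls of Kcnj10, the Kcnc genes and the other channel genes was not tested.

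**Figure D4:**
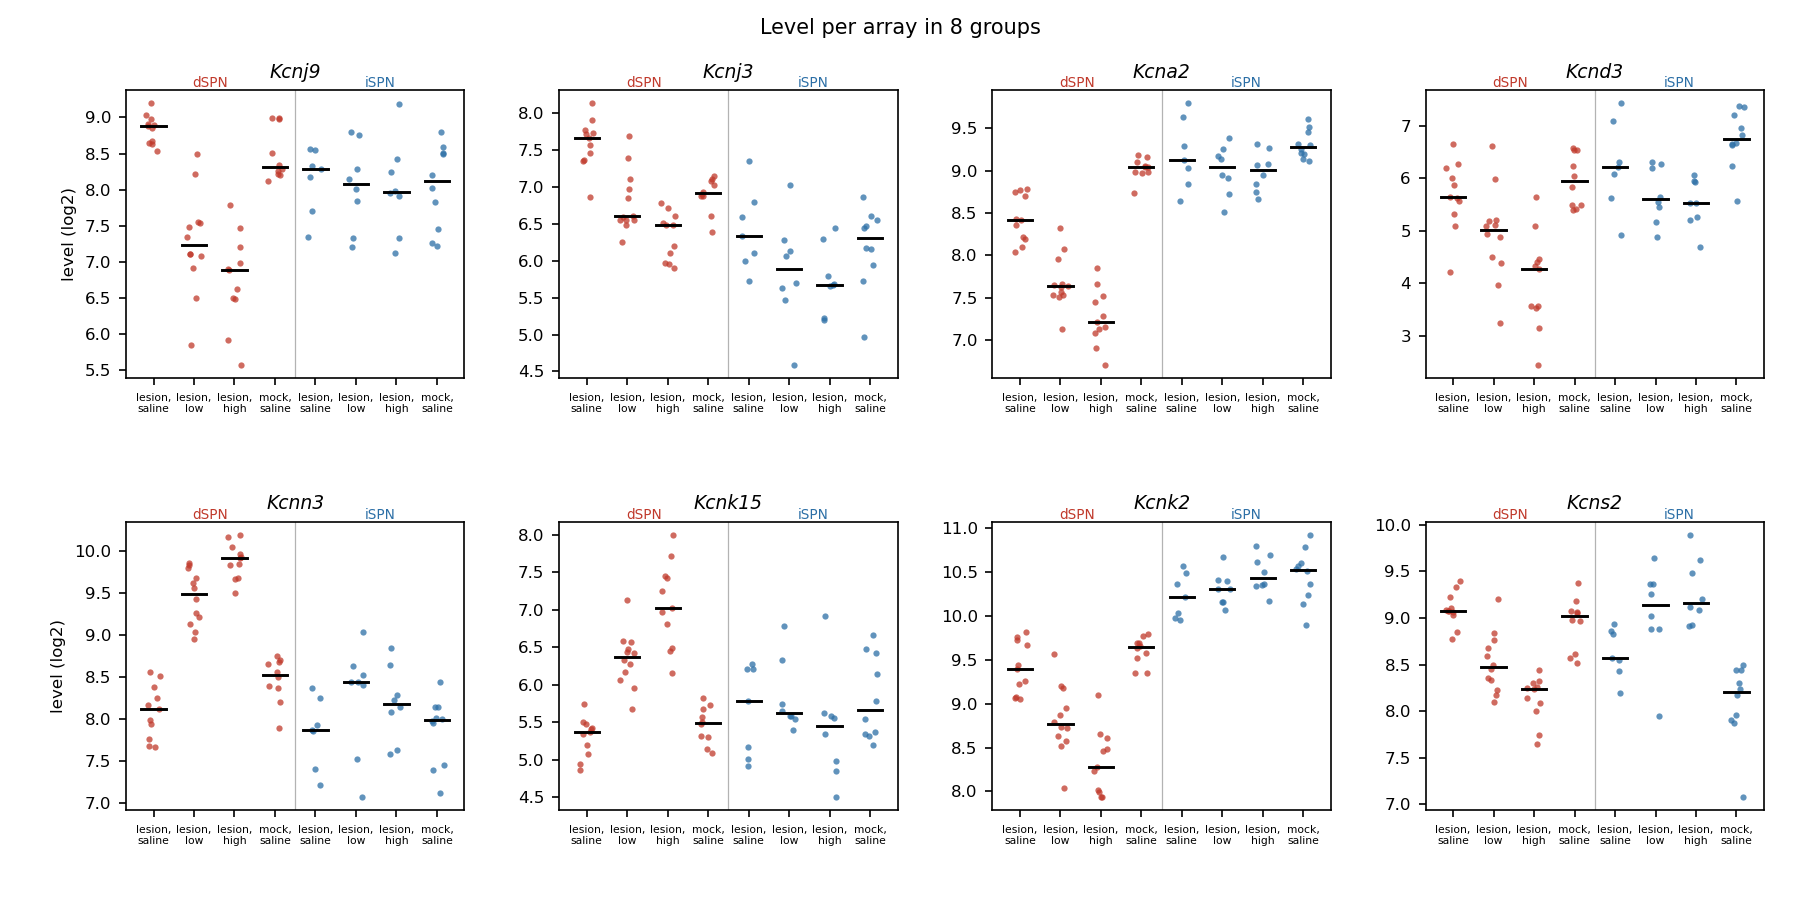
Level per array (log2, vertical axis) of 8 genes after lesion with saline, low dose or high dose and after mock lesion with saline, dSPN in red and iSPN in blue, with black bars at group medians. In dSPN, both levodopa groups lie higher than saline for Kcnn3 and Kcnk15 and lower for Kcnj9, Kcna2, Kcnd3 and Kcnk2 by their medians, while the iSPN groups of Kcnj9, Kcnk15 and Kcnk2 share most of their range.

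The low dose, given to relieve the motor deficit while avoiding dyskinesia, was compared with the same saline arrays in dSPN. It raised 6 and lowered 17 of 59 genes (10.2% and 28.8%), with 15.1% and 19% among all genes. Both dose comparisons share the saline arrays, so their calls are not independent. Called at both doses were 21 genes, 6 higher at both and 15 lower at both, and 16 of the 21 changed more at the high dose. The share of all tested genes called at both doses was not computed. Kcnq5 (-0.31, adjusted p = 0.0183) and the silent subunit Kcns1 (-0.83, adjusted p = 0.0329) were called at the low dose alone. Both calls were lost with run as a fixed block (Kcnq5 at adjusted p = 0.145, Kcns1 at -0.18 with adjusted p = 0.855), and the other Kcnq5 probe set had the opposite sign (0.12).

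Kcnn3 spanned 8.95 to 9.86 (median 9.49) at the low dose, already above every saline array (1.36, SE 0.16, adjusted p = 5.69e-11). Kcnj9 spanned 5.85 to 8.49 (median 7.23) at the low dose, below every saline array (-1.58, SE 0.22, adjusted p = 2.76e-08). Kcnk15 was at a median of 6.38 (1.04, adjusted p = 1.95e-05) and Kcna2 at 7.63 (-0.75, adjusted p = 2.39e-07). Kcng1 (-1.13), Kcnj3 (-0.79), Kcnc1 (-0.76), Kcnd3 (-0.75), Kcnk2 (-0.59) and Kcns2 (-0.58) fell too. The other Kcng1 probe set changed by only -0.13 and was not called. Kcna1 (0.30), Kcnk1 (0.34) and Kcnf1 (0.63) rose. The panel genes Kcna4 (-0.39) and Kcnd2 (-0.31) fell, and Kcnj2 (-0.33), Kcnj4 (-0.47), Kcnn2 (-0.50), Kcnq3 (-0.05) and Kcnma1 (-0.02) did not pass.

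Of the 14 oligodendrocyte markers 11, and of the 14 astrocyte markers 6, were lower at the low dose (78.6% and 42.9%, with 19% among all genes). Their part in the channel changes was not tested. Low dose and saline share no run in dSPN. With run as a fixed block, which compares them through other groups, 10 genes stayed called, Kcnn3 and Kcnk15 higher and Kcnj9, Kcnj3, Kcna2, Kcna4, Kcnd2, Kcns2, Kcnab1 and Kcnip4 lower.

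The doses themselves were compared to see which genes set the dyskinesia-inducing regimen apart. In dSPN 4 genes were higher and 5 lower at the high dose than at the low dose (6.78% and 8.47%, with 3.14% and 3.66% among all genes). Kcnk10 was higher by 1.24 (SE 0.39, adjusted p = 0.0389), with medians of 3.75 at the low dose and 4.88 at the high dose, and did not differ from saline at the low dose beyond its error (0.08, SE 0.39). Kcnab3 was higher by 0.86 (SE 0.22, adjusted p = 0.00675), Kcnk15 by 0.73 (adjusted p = 0.0135) and Kcna1 by 0.44 (adjusted p = 0.00097). Lower at the high dose were Kcnd3 (-0.89, adjusted p = 0.0444), Kcnk2 (-0.48), Kcnip3 (-0.45), Kcna2 (-0.42) and Kcnab1 (-0.21). With the mean of a gene's probe sets Kcnd3 (-0.16, adjusted p = 0.565), Kcna2 (-0.13, adjusted p = 0.360) and Kcnip3 (-0.34, adjusted p = 0.0658) lost this call.

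For Kcnn3 (0.44, adjusted p = 0.0791) and Kcnj9 (-0.51, adjusted p = 0.178) the step between doses did not pass. In run 3 alone, with 2 high-dose and 11 low-dose arrays, limma called 0 genes and 9 had an unadjusted p under 0.05, and with run as a fixed block only Kcnk2 was called. All 9 called genes kept their sign in run 3. In iSPN limma called 0 genes between the doses, with 2 at an unadjusted p under 0.05 (0.113% higher and 0.0603% lower among all genes). Under 8 alternative settings, all by limma, 0 were called and 2 to 8 genes had an unadjusted p under 0.05.

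In iSPN levodopa moved few of these genes. At the high dose 3 of 59 rose and 1 fell (5.08% and 1.69%, with 6.27% and 3.59% among all genes). At the low dose 1 rose and 3 fell (1.69% and 5.08%, with 2.41% and 1.77% among all genes). Kcnn1, a small-conductance KCa channel, spanned 5.39 to 8.13 (median 7.10) at the high dose, against 4.29 to 6.36 (median 5.55) with saline (1.51, SE 0.39, adjusted p = 0.00632). Kcns2 spanned 8.91 to 9.89 (median 9.17) at the high dose, against 8.19 to 8.94 (median 8.57) with saline (0.66, SE 0.17, adjusted p = 0.00618).

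Kcnf1 fell in iSPN at both doses. Its levels were 8.51 to 9.20 (median 9.06) with saline, 6.95 to 8.78 (median 8.43) at the low dose and 7.49 to 8.78 (median 8.46) at the high dose, changes of -0.77 (adjusted p = 0.017) and -0.64 (adjusted p = 0.0351). Kcnip2 rose at both, by 0.26 (adjusted p = 0.00306) at the low dose and 0.18 (adjusted p = 0.0303) at the high dose. Kcnq3 spanned 9.27 to 9.89 (median 9.47) at the low dose, against 9.65 to 10.51 (median 9.93) with saline (-0.43, adjusted p = 0.0391). Kcnd2 spanned 9.89 to 10.37 (median 10.13) at the low dose, against 10.13 to 10.80 (median 10.43) with saline (-0.31, adjusted p = 0.0249). Both pairs of groups overlapped. Kcnd2 lost its call with run as a fixed block (adjusted p = 0.0916), and Kcnq3 (adjusted p = 0.0836) and the low-dose rise of Kcnip2 (adjusted p = 0.0799) lost theirs with the mean of probe sets.

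These calls moved with the setting. With iSPN arrays alone in the fit 1 gene was called at the high dose, and at the low dose 0 by limma, with 9 at an unadjusted p under 0.05. With run as a fixed block 0 genes were called at the high dose and 3 had an unadjusted p under 0.05, Kcnn1 changing by 0.51 (adjusted p = 0.773).

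The interaction test asked where levodopa acted differently in the lines. At the high dose 4 genes gave a higher and 8 a lower effect in dSPN than in iSPN (6.78% and 13.6%, with 10.5% and 14.5% among all genes). Kcnk15 (2.00, SE 0.32, adjusted p = 8.8e-07) changed by 1.77 in dSPN and -0.23 in iSPN. Kcnj9 (-1.97, SE 0.36, adjusted p = 1.34e-05) changed by -2.08 in dSPN and -0.11 in iSPN, and Kcnn3 (1.46, SE 0.25, adjusted p = 4.58e-06) by 1.80 in dSPN and 0.34 in iSPN. None of these 3 iSPN changes was called.

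For 3 genes the effects were called in both lines with opposite signs. Kcns2 stood at -0.96 in dSPN but at 0.66 in iSPN, which differ by -1.62 (SE 0.22, adjusted p = 1.41e-08). Kcnf1 was at 0.59 in dSPN against -0.64 in iSPN (interaction 1.22, adjusted p = 0.000239). Kcnip2 was at -0.12 in dSPN against 0.18 in iSPN (interaction -0.31, adjusted p = 0.00136), while its other probe sets had the opposite sign in dSPN. The remaining calls were Kcnn1 (-1.48), Kcnk2 (-1.32), Kcna2 (-0.96), Kcna1 (0.67), Kcnip3 (-0.59) and Kcnab1 (-0.35). Under the fixed run block the differences of Kcnn1 (-0.61, adjusted p = 0.594), Kcnip3 (adjusted p = 0.0941) and Kcnab1 (adjusted p = 0.0574) lost their calls. For Kcnj3 (-0.59, adjusted p = 0.146) and Kcnd3 (-0.92, adjusted p = 0.143) a difference between lines did not pass, although both fell in dSPN alone.

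**Figure D5:**
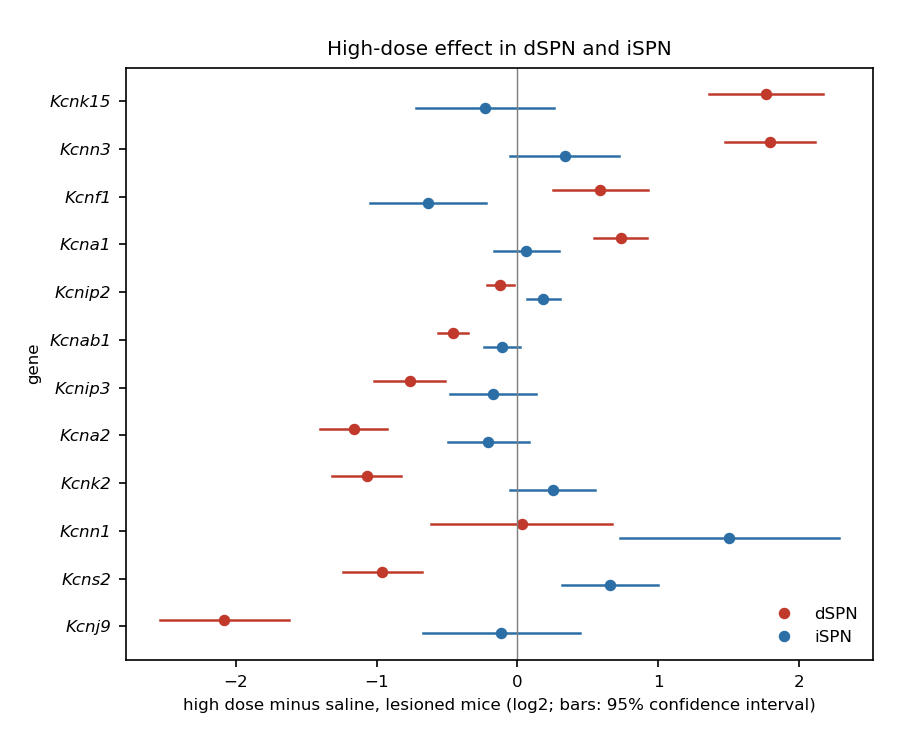
High-dose change against saline in lesioned mice (log2, horizontal axis) of the 12 genes whose change differed between lines, dSPN in red above iSPN in blue, with bars for the 95% confidence interval. Kcnj9, Kcnk15 and Kcnn3 lie far from 0 in dSPN and near it in iSPN, and Kcns2 and Kcnf1 lie on opposite sides.

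At the low dose 2 genes gave a higher and 7 a lower effect in dSPN than in iSPN (3.39% and 11.9%, with 6.99% and 7.79% among all genes). Kcnj9 (-1.49), Kcnf1 (1.39), Kcns2 (-0.999), Kcnn3 (0.94), Kcnk2 (-0.67), Kcna2 (-0.56) and Kcnip2 (-0.39) were called at this dose as well. Kcnj12 (-0.95, adjusted p = 0.0158) and Kcnh1 (-0.70, adjusted p = 0.0464), an EAG channel, were called for this difference. Neither had a called change after lesion or with either dose against saline in either line. Kcnj12 was called lower than mock at the high dose in dSPN, but not with run as a fixed block (-0.61, adjusted p = 0.0863). With run as a fixed block Kcnj9 (adjusted p = 0.159), Kcnn3 (0.52, adjusted p = 0.443), Kcnk2 (adjusted p = 0.262), Kcna2 (adjusted p = 0.134) and Kcnj12 (adjusted p = 0.136) lost this call, and with the mean of its probe sets Kcnip2 did (-0.19, adjusted p = 0.158). Since no run holds both lines, a line cannot be told apart from its runs.

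The levodopa groups were also set against mock-lesioned mice. These comparisons share arrays with those above. In dSPN 12 genes were higher and 19 lower at the high dose than in mock-lesioned mice (20.3% and 32.2%, with 18.4% and 25% among all genes), and 7 higher and 19 lower at the low dose (11.9% and 32.2%, with 12.5% and 17.7% among all genes). In iSPN 5 were higher and 5 lower at the high dose (8.47% each, with 10.4% and 8.27% among all genes), and 2 higher and 7 lower at the low dose (3.39% and 11.9%, with 5.89% and 5.08% among all genes).

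Against mock, Kcna2 was at -1.76 and Kcng1 at -2.05 at the high dose in dSPN, the lesion change and the levodopa change of each having the same sign. The other Kcng1 probe set, at -0.11 for the high dose against saline, was not read against mock. Kcnip3 was at -1.35 in dSPN and -1.31 in iSPN, with groups that did not overlap in either line. Its iSPN levels were 8.62 to 9.27 with saline, 8.23 to 9.64 at the low dose and 8.31 to 9.49 at the high dose, against 9.69 to 10.44 in mock-lesioned iSPN. No levodopa change of Kcnip3 was called in iSPN (-0.07 at the low dose and -0.18 at the high dose).

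Kcnj3 had opposite signs, 0.70 after lesion and -1.25 at the high dose in dSPN, and was at -0.56 against mock (adjusted p = 0.0155). That call was lost with run as a fixed block (adjusted p = 0.101) and with the mean of its probe sets (-0.25, adjusted p = 0.106). Kcnip2 in iSPN, with -0.31 after lesion and 0.18 at the high dose, was not called against mock (-0.13, adjusted p = 0.0859). Kcnq3 in dSPN was at -0.65 against mock at the high dose and -0.61 at the low dose, beside -0.56 after lesion with saline. Kcnn2, the small-conductance channel with no called lesion or levodopa change, was at -0.93 (high) and -1.06 (low) against mock in dSPN. Kcnma1 was called in none of the 16 comparisons.

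The lines were compared in mock-lesioned mice. Of 59 genes 12 were higher and 4 lower in dSPN than in iSPN (20.3% and 6.78%, with 11.6% and 10.9% among all genes). Kcns2 spanned 8.52 to 9.38 (median 9.02) in dSPN, against 7.08 to 8.50 (median 8.20) in iSPN, without overlap (0.85, SE 0.15, adjusted p = 7.15e-06). Kcnip4 spanned 9.69 to 10.25 (median 10.04) in dSPN, against 8.77 to 9.61 (median 9.11) in iSPN, also without overlap (0.85, SE 0.10, adjusted p = 1.24e-09). Kcna6, of the Kv1 family, spanned 8.17 to 8.84 (median 8.61) in dSPN, against 7.12 to 8.30 (median 8.01) in iSPN (0.66, adjusted p = 3.52e-05). Kcnab2, a Kv beta subunit, spanned 9.96 to 10.44 (median 10.26) in dSPN, against 9.18 to 10.09 (median 9.88) in iSPN (0.51, adjusted p = 0.000261). Both pairs of ranges overlapped. Kcng1 (0.85), Kcnj3 (0.70), Kcnn3 (0.61), Kcnv1 (0.60), Kcnh3 (0.46), Kcnq5 (0.37), Kcnd2 (0.28) and Kcnab1 (0.15) were also higher in dSPN. The other Kcng1 probe set gave 0.16 and was not called.

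Kcnk2 spanned 9.35 to 9.79 (median 9.64) in dSPN, against 9.90 to 10.92 (median 10.53) in iSPN, without overlap (-0.86, SE 0.13, adjusted p = 4.61e-07). Kcnj10 spanned 3.98 to 5.46 (median 4.59) in dSPN, against 5.59 to 7.21 (median 5.88) in iSPN (-1.49, SE 0.25, adjusted p = 3.96e-06). Glial markers stood beside it: dSPN had lower levels of 10 of 14 oligodendrocyte and 3 of 14 astrocyte markers and higher levels of none. The shares lower were 71.4% and 21.4%, with 10.9% among all genes. Of 4 cholinergic interneuron markers 3 were lower and 1 higher in dSPN (75% and 25%, with 10.9% and 11.6% among all genes). The part of glia in the Kcnj10 difference, and of interneurons in the line differences, was not tested. Kcna1 (-0.31) and Kcnip2 (-0.20) were lower in dSPN too. With the mean of a gene's probe sets 6 of the 16 calls were lost: Kcnd2 (0.08, adjusted p = 0.393), Kcnh3 (0.22, adjusted p = 0.0832), Kcnip2 (-0.06, adjusted p = 0.569), Kcna1 (-0.21, adjusted p = 0.186), Kcnab1 (0.11, adjusted p = 0.190) and Kcnq5 (adjusted p = 0.107). Of 12 called genes with further probe sets, 8 had the same sign in every one, and 6 had another called the same way.

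Genes outside the Kcn symbols whose proteins bind, anchor or modulate potassium channels were counted beside them. Of 22 tested, 4 were higher and 9 lower at the high dose in dSPN (18.2% and 40.9%, with 20.1% and 25.5% among all genes), and 2 were higher and 10 lower at the low dose (9.09% and 45.5%, with 15.1% and 19% among all genes). The median changes were -0.09 and -0.10. Chrm1, the muscarinic receptor that closes M channels, fell by 1.18 at the high dose. Ank3, which anchors KCNQ and sodium channels at the axon initial segment, fell by 0.88, Cntnap2, which clusters Kv1 channels, by 0.84, Amigo1, a Kv2 partner, by 0.65, and Dpp6, a Kv4 partner, by 0.61. Dlg1, a scaffold that binds Kv1 channels, rose by 0.73. In iSPN 2 rose at the high dose and none fell (9.09%, with 6.27% higher and 3.59% lower among all genes), and 1 rose at the low dose and none fell (4.55%, with 2.41% and 1.77% among all genes).

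Promoters were read to see whether the genes that moved together at the high dose hold the letters that cAMP- or activity-driven factors bind. RefSeq promoter windows on GRCm38.p6, from 250 bases before to 50 after a start, were found for 64 of the 84 genes, in 89 windows. The cAMP response element TGACGTCA, searched on both strands, was in 0 of 89 windows and in 1.79% of all 32851 windows. The AP-1 letters TGANTCA, the same on both strands but for the middle base, were in 4 of 89 windows (4.49%) and in 7.81% of all. Of these, 3 belong to genes that fell at the high dose in dSPN, where 3 of 28 windows (10.7%) held it, against 0 of 7 windows of genes that rose. The stretches are shown because they are the only matches among called genes, with the AP-1 letters in capitals, each in the direction of its gene:
Kcnip3, chr2:127522185-127522241 (minus strand): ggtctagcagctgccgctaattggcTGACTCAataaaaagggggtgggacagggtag
Kcnip4, chr5:49285710-49285766 (minus strand): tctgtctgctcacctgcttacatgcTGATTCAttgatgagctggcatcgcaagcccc
Kcnk2, chr1:189344287-189344343 (minus strand): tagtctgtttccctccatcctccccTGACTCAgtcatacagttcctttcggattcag
The letters begin 122 (Kcnip3), 82 (Kcnip4) and 126 bases (Kcnk2) before the start of transcription. A match is only a match of letters, and binding was not measured here.

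Some of these genes are neighbours in the mouse genome. Kcnj9 (-2.08) and Kcnj10 (-0.81) lie side by side and both fell at the high dose in dSPN, as did the neighbours Kcna3 (-0.90) and Kcna2 (-1.16). Kcna1 (0.73) lies between Kcna5 (0.22) and Kcna6 (0.04), neither of which was called.

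No tested gene belonged to the KCNE subunits, whose 5 genes were all below the filter, and 8 of 15 Kir genes were below it too. Among the 25 untested genes were Kcnj5, Kcnj6, Kcnj14 and Kcnt2. Tested without the filter, as an alternative, Kcne1 (0.23, adjusted p = 0.0211) and Kcne1l (0.28, adjusted p = 0.0234) would be called higher at the high dose in dSPN.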

How the data were processed

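Expression was measured on 77 Affymetrix mouse arrays, 1 per mouse. The authors deposited a log2 value for each probe set and array, made with RMA and the affy package per the submitters' processing notes, with versions not given in the sources used here. Groups were mapped from the sample titles by line, surgery and drug. Probe sets with several gene symbols (932) or none (9211) were left out, and the Entrez identifiers of all 167 potassium channel probe sets were in the gene table used here. The fit used limma 3.58.1 in R 4.3.3 (lmFit, eBayes), with all 77 arrays in 8 groups and 69 residual degrees of freedom, 1 probe set per gene, and Benjamini-Hochberg adjustment over 13271 genes in each comparison. It was tested on simulated data.

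The genes, lists and tests were chosen with earlier results of these data known. Values by group are given for up to 4 called genes per class with the largest high-dose change in dSPN, and up to 3 for lesion, for iSPN levodopa and for the line difference. A panel of genes was read whether called or not. A few called genes outside these limits (such as Kcna1 and Kcnf1) were given values by group after their results were seen. Alternatives were run as a fixed or random block, each line alone, array weights, no or a stricter filter (60th percentile), the mean of a gene's probe sets, quantile normalization, and single runs.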

Additional observations from a re-analysis of the deposited data

Results flagged for a closer look

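The effects of 24 gene and treatment pairs differed between the lines by an interaction test (dSPN minus iSPN, adjusted p under 0.05). For the lesion these were Kcnip2 (0.40), Kcnip4 (-0.86) and Kcnq3 (-0.88). For the high dose they were Kcna1 (0.67), Kcna2 (-0.96), Kcnab1 (-0.35), Kcnf1 (1.22), Kcnip2 (-0.31), Kcnip3 (-0.59), Kcnj9 (-1.97), Kcnk15 (2.00), Kcnk2 (-1.32), Kcnn1 (-1.48), Kcnn3 (1.46) and Kcns2 (-1.62). For the low dose they were Kcna2 (-0.56), Kcnf1 (1.39), Kcnh1 (-0.70), Kcnip2 (-0.39), Kcnj12 (-0.95), Kcnj9 (-1.49), Kcnk2 (-0.67), Kcnn3 (0.94) and Kcns2 (-0.999).

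Single arrays stood apart from the rest of their group in 14 of 135 pairs of gene and group, over 27 genes, where chance gives about 1 in 20. The check covered only groups of at most 10 arrays. The lesioned dSPN groups, with 11 (saline), 12 (low dose) and 11 arrays (high dose), were therefore not checked for stray arrays. After lesion with saline in iSPN the highest Kcnq3 array was at 10.51. At the low dose in iSPN the lowest arrays were at 9.54 for Kcnab2, 11.87 for Kcnip2 and 7.94 for Kcns2. At the high dose in iSPN the highest were at 6.00 for Kcnk10 and 6.92 for Kcnk15, and the lowest was at 5.39 for Kcnn1, the other 7 arrays of which lay at 6.88 or above. In mock-lesioned iSPN the highest arrays were at 12.35 for Kcnip2, 7.99 for Kcnk10 and 5.66 for Kcnn4, and the lowest at 10.88 for Kcnab1 and 7.08 for Kcns2. In mock-lesioned dSPN the lowest Kcna2 array was at 8.73 and the highest Kcnj10 array at 5.46.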

How the results depend on the processing

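The number of potassium channel genes called at the high dose in dSPN lay between 21 and 32 under the 9 alternatives, beside 29. With run as a fixed block the lesion counts became 2 (dSPN, beside 5) and 3 (iSPN, beside 5), the high-dose count in iSPN 0 (beside 4), the low-dose count in dSPN 10 (beside 23), the count between doses in dSPN 1 (beside 9), those against mock in iSPN 3 (high, beside 10) and 2 (low, beside 9), and the low-dose difference between lines 4 (beside 9). Within 1 run the counts were 0 for the lesion in dSPN, 0 for either dose in iSPN and 0 between doses in dSPN by limma, with 11, 3 (high), 9 (low) and 9 genes at an unadjusted p under 0.05, and against mock in dSPN 12 (high, beside 31) and 9 (low, beside 26), from as few as 2 arrays a group. Each line alone gave 1 at the high dose and 0 at the low dose in iSPN (beside 4 each). Array weights gave 8 for the lesion in dSPN and 2 at the low dose in iSPN. The mean of a gene's probe sets gave 8 for the lesion in dSPN and 5 for the lesion difference between lines (beside 3), and turned Kcnip2 in dSPN to 0.0126 at the high dose (adjusted p = 0.878) and 0.0134 at the low dose (adjusted p = 0.881). The other counts stayed within 1.5 times. Of single calls, 104 of 179 kept their side of the threshold with run as a fixed block and 42 of 108 within 1 run. With run as a random block 179 of 179 did, but the estimated correlation of arrays within a run was -0.02. That fit is therefore close to the main one and cannot show whether the calls depend on run. No paired analysis was possible because the title numbers pair no animals. The causes were not tested, and detection limits were not computed.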
